A study of Mus musculus with 15 samples.

Results

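The mitochondrial calcium uniporter and its partners were followed in mouse hematopoietic stem cells (HSCs), the self-renewing marrow cells from which all blood lineages derive. The set held 8 genes, Mcu, Micu2, Smdt1, Mcur1, Letm1, Vdac1, Vdac2 and Vdac3, out of 46119 genes in the deposited tables. Its members were taken by name, with earlier results of these data known. RNA was sequenced from 15 libraries, each made of 100 sorted cells, and the mice were wild-type C57BL/6 aged 8 to 10 weeks. The first experiment compared HSCs taken from mice at day 4 after 5-fluorouracil (5-FU day4, n = 4), a fluorinated uracil that is toxic to cycling marrow cells, with HSCs of untreated mice (Untreated, n = 4). The second compared HSCs cultured with nifedipine (Nifedipine, n = 4), a dihydropyridine blocker of L-type voltage-gated calcium channels, with HSCs cultured without it (Control, n = 3), and cells that had divided up to 3 times were sorted from both cultures. The labels do not give the drug doses or the length of culture, and they do not state that replicates are separate animals or cultures. The p-values therefore cover the spread among these libraries alone, and that spread may be technical.

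The uniporter is the channel by which calcium enters the mitochondrial matrix, driven by the membrane potential. Mcu encodes the pore, Smdt1 encodes EMRE, the small inner membrane subunit that the animal pore needs to conduct, and Micu2 and Micu3 encode calcium-sensing gatekeepers on the intermembrane side. Calcium that has entered raises the activity of several dehydrogenases of the tricarboxylic acid cycle, and an overload can open the permeability transition pore. Before it reaches the uniporter, calcium crosses the outer membrane through the voltage-dependent anion channels VDAC1, VDAC2 and VDAC3, which also pass ATP, ADP and other metabolites. Of the 8 genes, Mcu, Micu2 and Smdt1 thus encode subunits proper. Mcur1 encodes an inner membrane protein described as an assembly factor of the uniporter, Letm1 an inner membrane cation exchanger, and the 3 VDAC genes the outer membrane channels, so the set is wider than the complex itself.

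Promoter sequences of 4 of the genes are printed because these genes took different directions with nifedipine, Mcu being higher and Smdt1, Letm1 and Vdac1 lower. They are RefSeq windows on GRCm38.p6, the assembly of mm10, 5′ to 3′ on the strand of the gene, from 250 bases before to 50 bases after an annotated start. They lie at chr10:59616643-59616942 (minus strand, Mcu), chr15:82345796-82346095 (plus, Smdt1), chr5:33782668-33782967 (minus, Letm1) and chr11:52360601-52360900 (plus, the first of 2 windows of Vdac1). Capitals mark matches on either strand to the motifs searched.
Mcu: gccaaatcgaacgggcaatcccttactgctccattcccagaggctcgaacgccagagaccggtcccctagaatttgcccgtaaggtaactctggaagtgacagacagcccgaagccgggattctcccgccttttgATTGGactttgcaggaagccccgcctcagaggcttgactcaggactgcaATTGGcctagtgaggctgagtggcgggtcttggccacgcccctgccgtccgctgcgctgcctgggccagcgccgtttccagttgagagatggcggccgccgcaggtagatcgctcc
Smdt1: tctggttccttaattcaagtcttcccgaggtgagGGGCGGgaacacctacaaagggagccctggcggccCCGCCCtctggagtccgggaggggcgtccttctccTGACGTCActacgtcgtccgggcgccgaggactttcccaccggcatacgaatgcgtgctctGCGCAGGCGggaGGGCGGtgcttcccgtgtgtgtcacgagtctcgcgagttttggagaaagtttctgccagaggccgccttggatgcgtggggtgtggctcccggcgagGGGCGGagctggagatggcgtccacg
Letm1: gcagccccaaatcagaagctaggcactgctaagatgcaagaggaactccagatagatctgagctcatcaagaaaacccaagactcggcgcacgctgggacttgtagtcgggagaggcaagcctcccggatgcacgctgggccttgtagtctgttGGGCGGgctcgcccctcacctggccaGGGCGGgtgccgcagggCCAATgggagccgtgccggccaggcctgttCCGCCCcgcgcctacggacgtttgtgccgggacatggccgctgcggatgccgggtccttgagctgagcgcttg
Vdac1: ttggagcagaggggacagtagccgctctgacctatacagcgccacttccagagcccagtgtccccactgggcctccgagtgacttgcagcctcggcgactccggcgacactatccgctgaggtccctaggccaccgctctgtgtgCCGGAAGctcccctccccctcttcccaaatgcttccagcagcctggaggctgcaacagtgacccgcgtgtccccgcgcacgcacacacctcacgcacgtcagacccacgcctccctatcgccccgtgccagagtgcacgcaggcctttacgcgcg

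The motifs searched were those of NRF1 (GCGCANGCG), GABP (CCGGAAG), CREB (TGACGTCA), the E-box (CACGTG), NF-Y (CCAAT), SP factors (GGGCGG) and YY1 (AAGATGGCG), and none of the matches in the windows printed overlapped another. The Mcu window held 2 NF-Y matches on the opposite strand, beginning 115 and 66 bases before the start site, and no SP match. The Smdt1 window held 4 SP matches, 1 CREB match and 1 NRF1 match, the last on the plus strand from 85 bases before the start site. The Letm1 window held 3 SP matches and 1 NF-Y match, and the printed Vdac1 window held 1 GABP match. The second Vdac1 window, not printed, held 3 SP matches. Among 32851 windows of the same length, an NF-Y match occurred in 37.4%, an SP match in 35.7%, a GABP match in 8.86% and a CREB match in 1.79%. The windows of the set held 61.7 to 72.3% G and C, against a median of 52.7% over all windows. The shares over all windows were not matched for this. Windows of Micu2 and Mcur1 each held 1 SP match, and that of Micu2 also held the YY1 motif, present in 1.4% of all windows. The NRF1 motif occurred in 6.25% of all windows. A stricter form with a further C, 10 letters long, was in 4.6% of all windows and in 0 of those of the set, so the Smdt1 match rests on the shorter form. No window of the set held the E-box (7.15% of all windows). For Vdac2 and Vdac3 no window was used. Such matches describe letters in a window and are not evidence of binding.

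Levels were compared between genes as CPM (read counts scaled to library size) per kilobase of exon, written CPM per kb, since longer genes gather more reads. Per length, the VDAC genes and Smdt1 stood high and the pore gene low. Vdac2 had the highest level of the 8 genes in 15 of 15 libraries, with means of 110.2 CPM per kb after 5-FU, 71.9 in Untreated, 130.0 with nifedipine and 176 in Control. Mcu had the lowest in 12 of 15, with means of 7.37 CPM per kb after 5-FU, 4.33 in Untreated, 8.65 with nifedipine and 6.50 in Control. In the other 3 libraries, Nifedipine 1, 3 and 4, Letm1 was lowest. Smdt1 stood between them, with means of 65.9 CPM per kb after 5-FU, 41.0 in Untreated, 89.6 with nifedipine and 112 in Control. Among 14076 genes ranked by level per length, Vdac2 stood at percentiles 97.4 after 5-FU, 96.7 in Untreated, 97.6 with nifedipine and 97.9 in Control. Mcu stood at percentiles 47.3 after 5-FU, 34.7 in Untreated, 50.9 with nifedipine and 46.8 in Control. Smdt1 stood at 94.7 after 5-FU, 91.6 in Untreated, 95.7 with nifedipine and 96.0 in Control. Reads on Mcu numbered 85 to 588 per library, so its values carry more counting error than those of the VDAC genes.

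**Figure D1:**
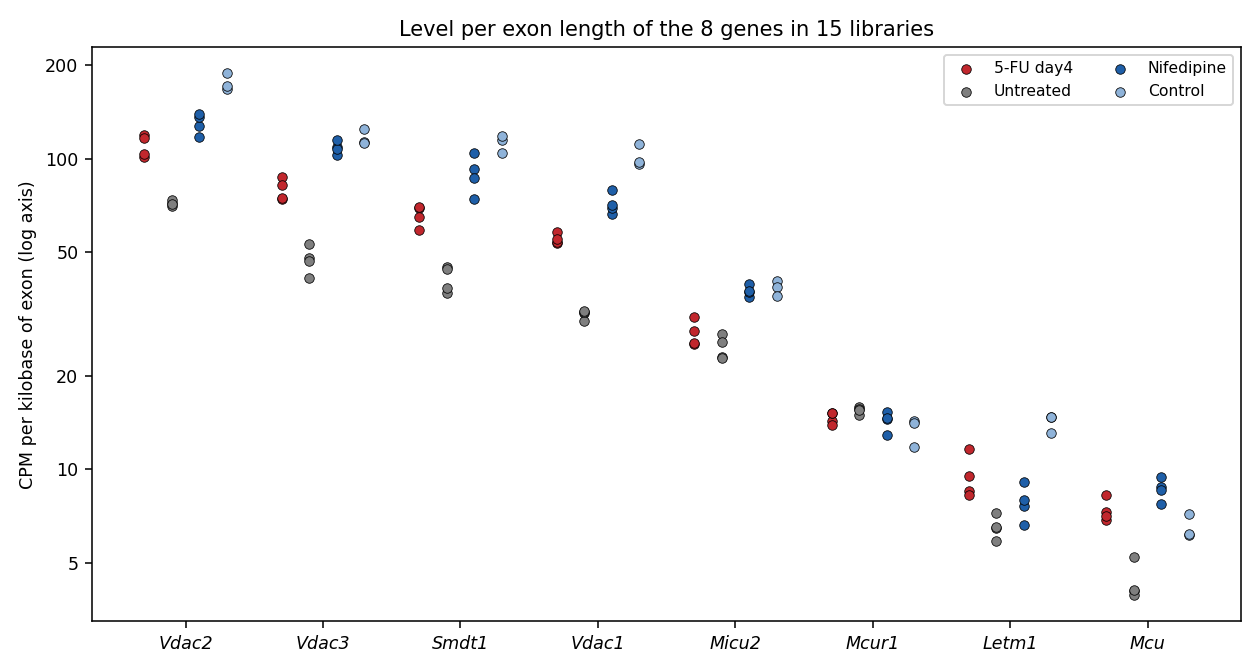
Level per exon length (CPM per kilobase of exon, log axis) of the 8 genes, with 1 point per library and the groups side by side in 4 colours. Vdac2 is the highest gene and Mcu the lowest in most libraries, and Mcur1 varies least between groups.

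The comparison of 5-FU day4 with Untreated set HSCs at day 4 after the drug against those of mice that had not received it. Of the 8 genes, 6 were higher after 5-FU and 0 lower, where 50.5% of 13384 tested genes were called (26.7% higher and 23.8% lower; edgeR quasi-likelihood test, adjusted p of 0.05 or less over all tested genes). The median log2 fold change was 0.68 over the 8 genes and -0.02 over all tested genes. The pore gene, EMRE, LETM1 and the 3 VDAC genes rose by at least 0.57 on the log2 scale, while Micu2 and Mcur1 did not pass the test. In those 6 genes the ranges of the groups did not overlap, as in 47.3% of all tested genes. None of the 8 genes was lost to the filter on low counts in any comparison.

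Mcu (mm10 chromosome 10, 59446984 to 59616692) had 21.5, 25.9, 22.8 and 22.1 CPM (scaled by TMM) after 5-FU, against 16.4, 12.7, 12.3 and 12.8 CPM in Untreated. All 5-FU libraries lay above all untreated ones, and Untreated 1 stood above the other untreated libraries. The log2 fold change was 0.79 ± 0.13 (SE; edgeR adjusted p = 0.00052). Smdt1 (chromosome 15, 82346046 to 82349062) had 40.7, 40.9, 38.1 and 34.6 CPM after 5-FU, against 26.2, 21.6, 25.8 and 22.4 CPM in Untreated. Again the groups did not overlap (log2 fold change 0.71 ± 0.10 SE; edgeR adjusted p = 0.000209). Smdt1 has the shortest exons of the set, 585 bases, and with an offset for exon length its log2 fold change was 0.31 (adjusted p = 0.0184). Micu2 (chromosome 14, 57916261 to 57999277), whose protein helps to hold the pore shut at resting calcium, had 72.8, 59.5, 59.9 and 65.3 CPM after 5-FU, against 54.1, 63.7, 60.5 and 53.4 CPM in Untreated. These ranges overlapped (log2 difference 0.19 ± 0.09 SE; edgeR adjusted p = 0.115). With the library size taken from the total implied by the RPKM values (the RPKM total), Micu2 passed at 0.38 (adjusted p = 0.00859), in a fit that moved the median of all tested genes to 0.17.

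Mcur1 (chromosome 13, 43538406 to 43560260) had 69.7, 74.2, 74.1 and 67.6 CPM after 5-FU, against 77.2, 76.1, 72.6 and 75.3 CPM in Untreated. The ranges overlapped and the log2 difference was -0.05 ± 0.06 (SE; edgeR adjusted p = 0.516). Its sign turned to 0.15 with the RPKM total and 0.04 with the exon length offset, neither of which passed. Letm1 (chromosome 5, 33739675 to 33782704) had 64.0, 52.1, 46.8 and 45.5 CPM after 5-FU, against 35.5, 35.8, 39.7 and 32.2 CPM in Untreated. The groups did not overlap, with 5-FU 1 the highest, and the log2 fold change was 0.57 ± 0.12 (SE; edgeR adjusted p = 0.00255).

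Among the outer membrane channels, Vdac1 (chromosome 11, 52360862 to 52389397), the isoform best known for its place at contacts with the endoplasmic reticulum, had 129, 141, 130.4 and 133 CPM after 5-FU, against 77.3, 72.7, 77.7 and 78.3 CPM in Untreated. Its log2 fold change was 0.83 ± 0.05 (SE; edgeR adjusted p = 2.92e-06). Vdac2 (chromosome 14, 21831561 to 21845879), the isoform that binds the cell death protein BAK, had 198, 194, 169 and 172 CPM after 5-FU, against 119.8, 117, 122 and 119 CPM in Untreated. The log2 fold change was 0.64 ± 0.06 (SE; edgeR adjusted p = 2.17e-05). Vdac3 (chromosome 8, 22577075 to 22593813) had 106, 124, 106 and 117 CPM after 5-FU, against 68.0, 66.6, 75.8 and 58.7 CPM in Untreated. Its log2 fold change was 0.78 ± 0.09 (SE; edgeR adjusted p = 4.7e-05). In each of the 3 VDAC genes every 5-FU library lay above every untreated one. The last bases of Vdac2 overlap Comtd1, and since the libraries carry no strand, reads there cannot be assigned to either gene.

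**Figure D2:**
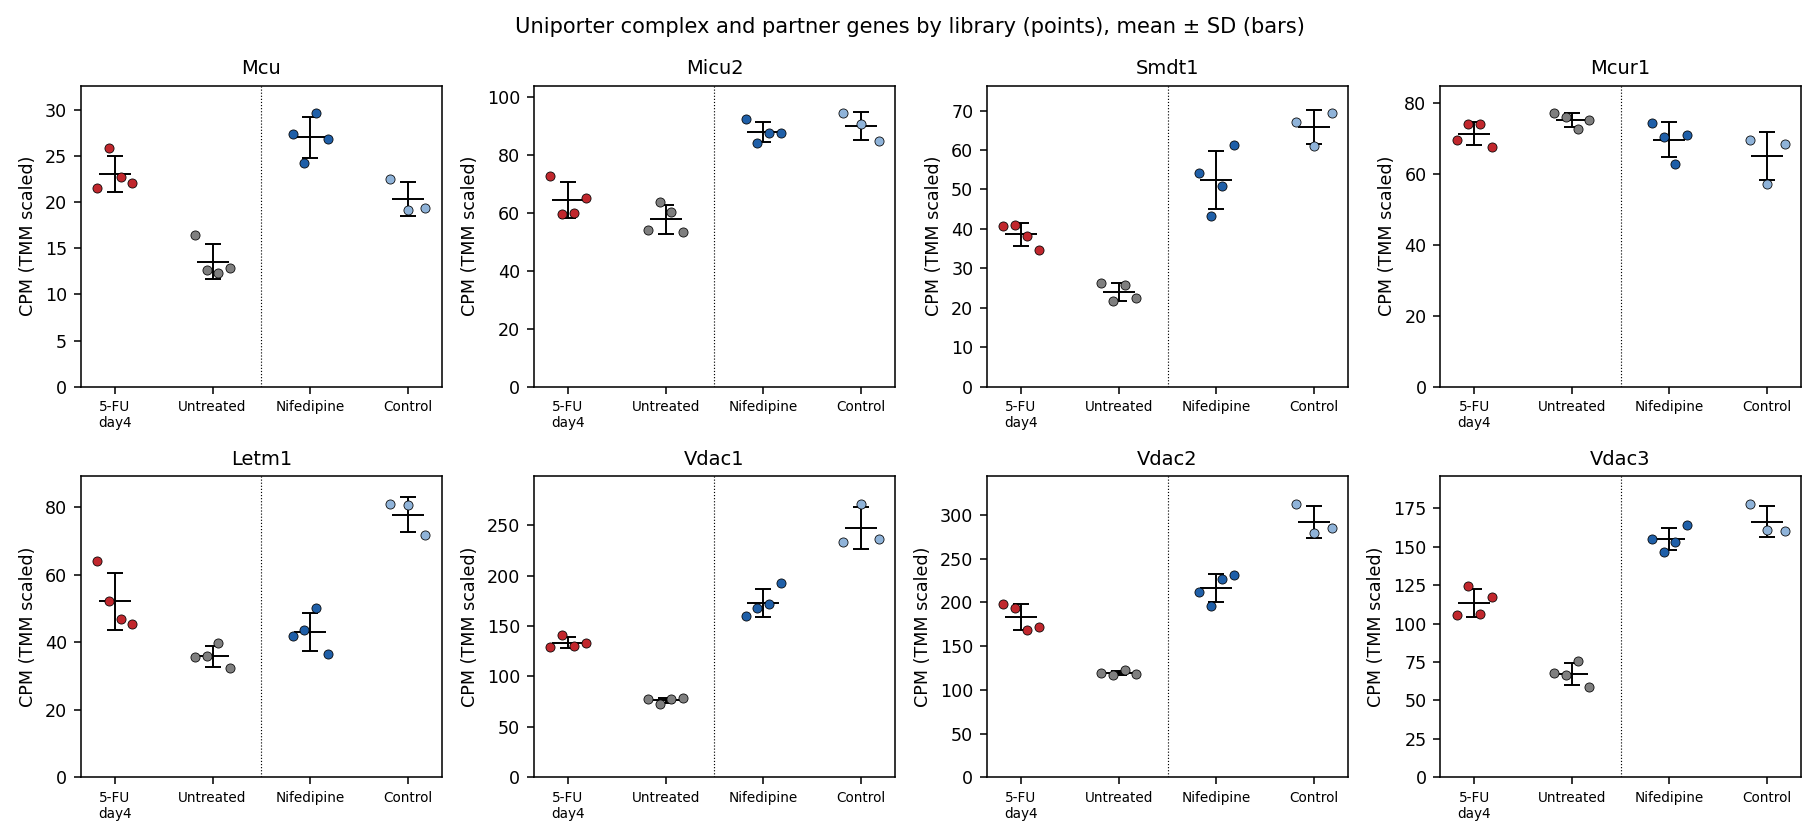
CPM of the 8 genes in each library (points), with the mean and SD of each group as bars, on axes that start at 0. Mcu, Smdt1, Letm1, Vdac1, Vdac2 and Vdac3 have all 5-FU libraries above all untreated ones. With nifedipine Mcu lies above Control, and Letm1, Vdac1 and Vdac2 lie below it.

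Outside the set, Micu3, the gatekeeper best known from brain, had 29.8, 20.7, 22.1 and 27.4 CPM after 5-FU, against 25.8, 32.4, 32.5 and 33.6 CPM in Untreated. Its log2 difference was -0.28 ± 0.14 (SE; edgeR adjusted p = 0.116), and it passed without 5-FU 1 (-0.39, adjusted p = 0.0477).

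Ratios of levels within a library do not depend on library size, but they were taken without the exon length offset. With that offset the log2 fold change after 5-FU was 0.79 for Mcu and 0.31 for Smdt1, so the ratio of these genes depends on it. The ratio of Mcu to Smdt1 lay at 0.0988 to 0.119 after 5-FU and at 0.0894 to 0.117 in Untreated, and these ranges overlapped. Vdac1 to Mcu also overlapped, with means of 7.50 ± 0.36 after 5-FU and 7.38 ± 0.92 in Untreated (SD, n = 4 each). Mcu to Micu2 averaged 0.272 after 5-FU and 0.177 in Untreated, and its ranges met, since Untreated 1 stood at 0.227 and the lowest 5-FU library at 0.222. Mcu to Mcur1 averaged 0.502 ± 0.03 after 5-FU and 0.279 ± 0.03 in Untreated (SD, n = 4 each), with no overlap.

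**Figure D3:**
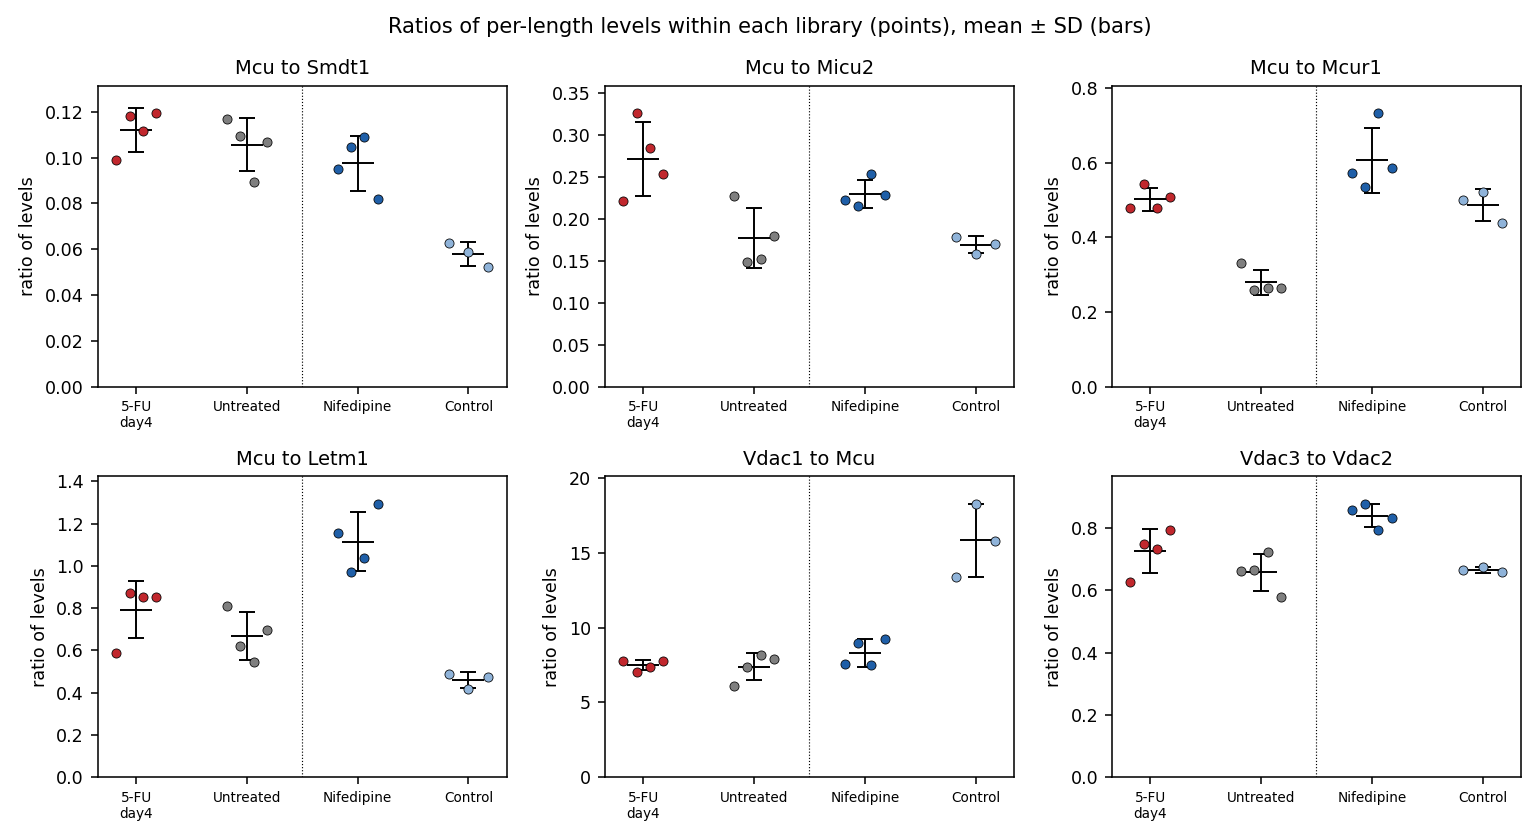
Ratios of levels per exon length within each library (points), taken without the exon length offset, with the mean and SD of each group. The ratio of Mcu to Smdt1 overlaps between 5-FU and Untreated and is higher with nifedipine than in Control, and Vdac1 to Mcu is lower with nifedipine than in Control.

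Genes around the uniporter were counted in 6 related lists. Of all tested genes, 26.7% rose and 23.8% fell after 5-FU. Among 11 tested other uniporter subunits and assembly factors, 5 rose after 5-FU and 1 fell, with a median log2 fold change of 0.30. Among the rises were the inner membrane scaffold genes Phb2, Stoml2 and Phb, at 0.89, 0.86 and 0.71, and Spg7, which encodes a protease subunit, at 0.30. Spg7 lost its call without 5-FU 2 (edgeR adjusted p = 0.0705), 5-FU 4 (0.067), Untreated 2 (0.0633) or Untreated 4 (0.0699), and without both Untreated 3 and 5-FU 4 (0.081). The fall was in Slc25a23, a calcium-dependent ATP-magnesium/phosphate carrier, at -0.56. Without 5-FU 2, 5-FU 4 or Untreated 4 the list had 3 rises, as it had without both Untreated 3 and 5-FU 4. It had 8 rises with the RPKM total, and 2 falls without 5-FU 1 or Untreated 4. Ccdc109b, which encodes the MCU paralog MCUb, did not pass the filter on low counts in any comparison.

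Of 10 tested genes listed with other mitochondrial cation and calcium exchange, 5 rose and 2 fell (median 0.33). The list is wider than its name, and Lrpprc, Tmem11 and Mcoln1 do not encode mitochondrial exchangers. Slc25a25 and Slc25a24, carriers of the same kind as Slc25a23, rose by 0.85 and 0.37, the inner membrane gene Ghitm by 0.47, Lrpprc, which stabilises mitochondrial messenger RNA, by 0.56 and Tmem11, which encodes a mitochondrial membrane protein, by 0.53. Letm2, the paralog of Letm1, fell by 1.05 on the log2 scale, opposite in sign to Letm1. The fall of Mcoln1, which encodes a lysosomal channel, at -0.37 (edgeR adjusted p = 0.0389), was lost without 5-FU 1, 5-FU 3, 5-FU 4, Untreated 1, Untreated 3 or Untreated 4, at adjusted p of up to 0.1. It was also lost without both Untreated 3 and 5-FU 4 (0.167), with no filter (0.0547) and with the RPKM total (-0.17, adjusted p = 0.321). Of 15 genes of endoplasmic reticulum contact and calcium release, 6 rose and 2 fell (median 0.08), where 26.7% of all tested genes rose and 23.8% fell. The chaperone gene Hspa9, whose product bridges VDAC1 and the inositol trisphosphate receptor, rose by 0.85. Itpr2 and Itpr1, which encode such receptors, fell by 1.42 and 0.44 on the log2 scale, and Itpr1 stood at -0.24 with the RPKM total and -0.22 with the exon length offset.

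Of 14 genes of calcium-sensitive mitochondrial enzymes, carriers and related proteins, 11 rose and 1 fell (median 0.42). Not every gene of this list encodes a calcium-sensitive protein. Of all tested genes, 26.7% rose and 23.8% fell. Idh3a, a subunit of the calcium-activated isocitrate dehydrogenase, rose by 1.34, Dlst of the oxoglutarate dehydrogenase complex by 0.60 and the phosphate carrier gene Slc25a3 by 0.49. The fall was in Pdp2, a pyruvate dehydrogenase phosphatase, at -0.30, and it was lost with the RPKM total (adjusted p = 0.34) and the exon length offset (0.126). Of 13 tested VDAC partners and permeability transition genes, 9 rose and 1 fell (median 0.57). The ADP/ATP carrier gene Slc25a5 rose by 1.47 and Ppif, which encodes cyclophilin D, by 0.57, and the anti-apoptotic gene Mcl1 fell by 0.73. Of 14 genes of outer membrane import and beta-barrel assembly, which places VDACs in the membrane, 11 rose and 1 fell (median 0.59). Mtx2 rose by 0.83, Tomm70a by 0.61 and Tomm20 by 0.58, and Mtx3 fell by 0.48, or by 0.28 with the RPKM total and 0.31 with the exon length offset.

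Sums of mitosis, HSC, and granulocyte and monocyte markers differed without overlap in this comparison, and sums of the other marker lists overlapped. The sum of 16 mitosis genes lay at 3087 to 3597 CPM after 5-FU and 176 to 832 CPM in Untreated, highest there in Untreated 3, and all 16 rose. The sum of 10 HSC markers lay at 3220 to 3487 CPM after 5-FU and 4639 to 4987 CPM in Untreated. All 10 were detected in both, with 7 called lower and 0 higher. The sum of 10 endothelial and stromal markers lay at 99.6 to 458 CPM after 5-FU and 142 to 1770 CPM in Untreated, highest in Untreated 2. All 10 were detected in both, with 5 called lower and 0 higher. That of 10 erythroid markers lay at 255 to 340 CPM after 5-FU and 71.2 to 1945 CPM in Untreated. Hba-a1 and Car1 were among those at 0 after 5-FU. Erythroid sums were 1671 and 1945 CPM in Untreated 2 and 4, against 71.2 and 87.6 CPM in Untreated 1 and 3. Summed megakaryocyte markers lay at 269 to 332 CPM after 5-FU and 317 to 412 CPM in Untreated, granulocyte and monocyte markers at 126 to 135 CPM after 5-FU and 147 to 178 CPM in Untreated, and lymphoid markers at 13.6 to 24.5 CPM after 5-FU and 23.7 to 37.9 CPM in Untreated. The part of these markers in the changes was not tested, and in sorted bulk samples fewer cells of a type and less RNA per cell cannot be told apart. All 6 called genes of the set kept their calls without both Untreated 3 and 5-FU 4, and with each of the 8 libraries left out in turn. Untreated 2 and Untreated 4 were not left out together. With 1 library left out, log2 fold changes spanned 0.72 to 0.90 for Mcu, 0.67 to 0.76 for Smdt1, 0.44 to 0.63 for Letm1, 0.79 to 0.84 for Vdac1, 0.60 to 0.68 for Vdac2 and 0.72 to 0.83 for Vdac3.

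The comparison of Nifedipine with Control set HSCs cultured with the channel blocker against HSCs cultured without it. Of the 8 genes, 1 was higher with nifedipine and 4 were lower, where 49.9% of 12807 tested genes were called (25.8% higher and 24.2% lower; edgeR quasi-likelihood test). The median log2 fold change was -0.21 over the 8 genes and 0.02 over all tested genes. The pore gene Mcu was higher, Letm1, Vdac1, Vdac2 and Smdt1 were lower, and Micu2, Mcur1 and Vdac3 did not pass the test. Ranges did not overlap in 4 of the 8 genes, Mcu above Control and Letm1, Vdac1 and Vdac2 below it, where 51.2% of all tested genes had no overlap (25.8% above Control and 25.5% below).

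Mcu had 27.4, 24.3, 29.6 and 26.8 CPM with nifedipine, against 22.5, 19.2 and 19.3 CPM in Control. All nifedipine libraries lay above all control ones, and the log2 fold change was 0.41 ± 0.12 (SE; edgeR adjusted p = 0.00912). Smdt1 had 54.1, 43.4, 50.9 and 61.3 CPM with nifedipine, against 67.1, 61.0 and 69.3 CPM in Control. Nifedipine 4 stood just above Control 2, so the ranges met, and the log2 fold change was -0.33 ± 0.10 (SE; edgeR adjusted p = 0.0141). That call was lost without Control 3 (-0.29, adjusted p = 0.0612), with the RPKM total (-0.28, adjusted p = 0.101) and with the exon length offset (-0.23, adjusted p = 0.0577). Micu2 had 92.5, 84.2, 87.5 and 87.8 CPM with nifedipine, against 94.5, 90.9 and 84.9 CPM in Control. These ranges overlapped (log2 difference -0.03 ± 0.07 SE; edgeR adjusted p = 0.744).

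Mcur1 had 74.4, 70.6, 62.9 and 71.2 CPM with nifedipine, against 69.8, 57.3 and 68.4 CPM in Control, with overlapping ranges (log2 difference 0.10 ± 0.09 SE; edgeR adjusted p = 0.393; -0.04 with the exon length offset). Letm1 had 41.7, 43.7, 50.01 and 36.4 CPM with nifedipine, against 81.0, 80.7 and 71.7 CPM in Control. The groups lay far apart, and its log2 fold change of -0.86 ± 0.10 was the largest in size of the set (SE; edgeR adjusted p = 1.51e-06). With the exon length offset it was -1.01.

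The VDAC genes split. Vdac1 had 160.4, 168, 172 and 193 CPM with nifedipine, against 233, 271 and 237 CPM in Control. All nifedipine libraries lay below all control ones (log2 fold change -0.51 ± 0.07 SE; edgeR adjusted p = 1.56e-05). Vdac2 had 212, 196, 226 and 231 CPM with nifedipine, against 313, 279 and 285 CPM in Control, again with no overlap (log2 fold change -0.44 ± 0.07 SE; edgeR adjusted p = 3.92e-05). Vdac3 had 155, 147, 153 and 164 CPM with nifedipine, against 178, 161 and 160.4 CPM in Control. Its ranges overlapped (log2 difference -0.10 ± 0.07 SE; edgeR adjusted p = 0.221). The ratio of Vdac3 to Vdac2 lay at 0.791 to 0.877 with nifedipine and 0.657 to 0.673 in Control, and did not overlap. Of the summed VDAC levels per length, Vdac3 made up 35.1% ± 0.84 with nifedipine and 29.6% ± 0.88 in Control (SD, n = 4 and 3), and these shares did not overlap. Vdac1 made up 23.0% ± 0.99 with nifedipine and 25.9% ± 2.50 in Control, and Vdac2 made up 41.9% ± 1.12 with nifedipine and 44.5% ± 1.65 in Control (SD, n = 4 and 3), and both of these overlapped between the groups.

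Micu3, outside the set, was higher with nifedipine as Mcu was. It had 22.3, 27.3, 25.1 and 21.1 CPM with nifedipine, against 18.5, 18.3 and 12.6 CPM in Control, with no overlap (log2 fold change 0.54 ± 0.15 SE; edgeR adjusted p = 0.00673).

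Some other proportions shifted without overlap. The ratio of Mcu to Smdt1 lay at 0.0819 to 0.109 with nifedipine and 0.0522 to 0.0627 in Control. Mcu to Micu2 lay at 0.216 to 0.254 with nifedipine and 0.158 to 0.178 in Control. Mcu to Letm1 lay at 0.973 to 1.29 with nifedipine and 0.417 to 0.487 in Control. Vdac1 to Mcu lay at 7.47 to 9.26 with nifedipine and 13.4 to 18.3 in Control. Vdac1 to Vdac2 overlapped, at 0.520 to 0.589 with nifedipine and 0.512 to 0.667 in Control.

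**Figure D4:**
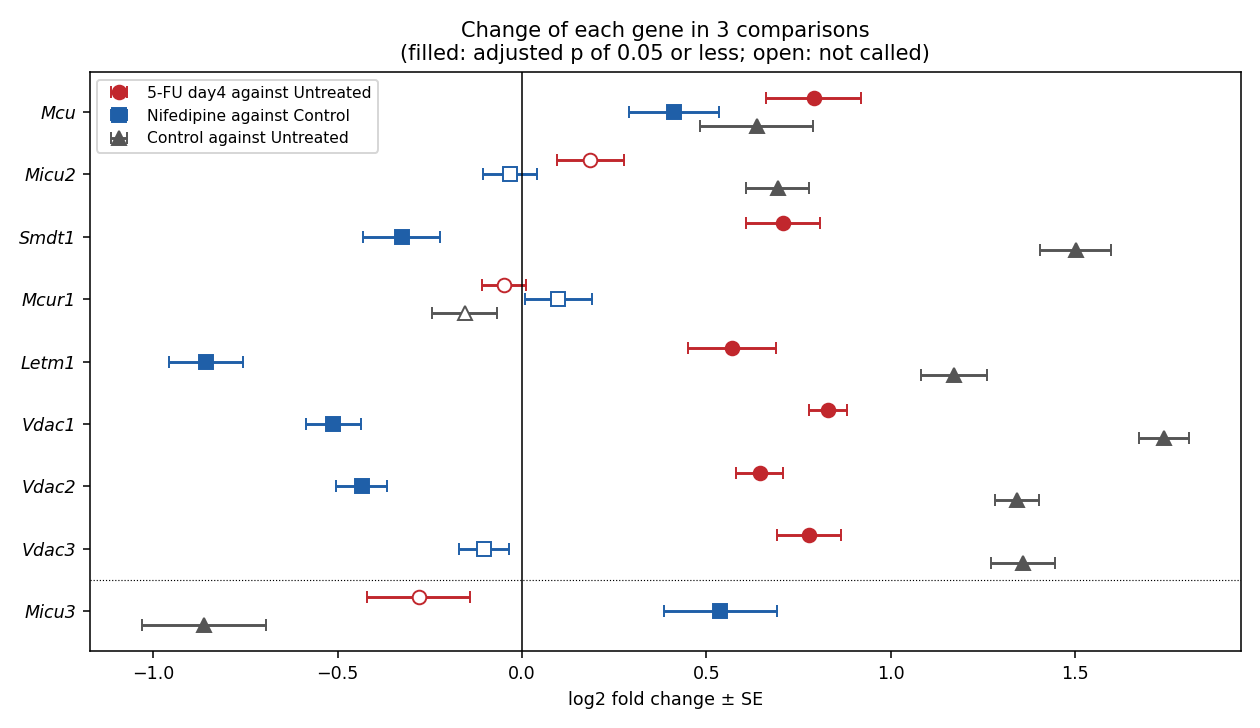
Log2 fold change with its SE for the 8 genes and, under the dotted line, Micu3, in 3 comparisons. Filled symbols passed the edgeR test at an adjusted p of 0.05 or less. Letm1, Smdt1, Vdac1 and Vdac2 stand right of 0 after 5-FU and left of 0 with nifedipine, while Mcu stands right of 0 in all 3 comparisons.

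Around the uniporter, 6 of 11 tested other subunits and assembly factors fell with nifedipine and 2 rose, Micu3 among them (median log2 fold change -0.27). Of all tested genes, 24.2% fell and 25.8% rose. Phb2 fell by 0.86, Phb by 0.82 and Stoml2 by 0.57 on the log2 scale. Of 10 tested genes listed with other mitochondrial exchange, 6 rose and 3 fell (median 0.46). Lrpprc and Tmem11 of this list do not encode exchangers. The uncoupling protein gene Ucp2 rose by 0.53 and Ghitm by 0.51, and Lrpprc fell by 0.70. Tmem11 at -0.38 and Slc25a25 at -0.51 were the other falls. Tmem11 lost its call without Control 2 (adjusted p = 0.0824) and with the RPKM total (0.0518), and Slc25a25 without Nifedipine 1 (0.061), Nifedipine 3 (0.0502) or Control 3 (-0.32, adjusted p = 0.191).

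Of 15 genes of endoplasmic reticulum contact and calcium release, 4 rose and 5 fell (median -0.07), where 25.8% of all tested genes rose and 24.2% fell. All 3 inositol trisphosphate receptor genes rose, Itpr2 by 1.65, Itpr3 by 0.60 and Itpr1 by 0.30. With the exon length offset Itpr3 stood at 0.38, and Itpr1 at 0.08 with its call lost (adjusted p = 0.293). Pacs2, which sorts proteins to the contacts, rose by 0.22 (adjusted p = 0.0352) and lost its call without Nifedipine 2, Nifedipine 3, Control 2 or Control 3, with the RPKM total and with the exon length offset, at adjusted p of 0.052 to 0.532. Among the falls were Hspa9, at -0.54, and Fkbp8, at -0.35. The fusion genes Mfn2 and Mfn1 fell by 0.29 and 0.24. Mfn2 lost its call with the RPKM total (0.0772). Mfn1 lost its call there (0.17), without Nifedipine 1, 3 or 4 (0.0525 to 0.0724), without Control 1 (-0.14, adjusted p = 0.248) and without Control 3 (0.0636). With the exon length offset 8 genes of this list fell and 2 rose, and with the RPKM total 3 fell.

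Of the 14 genes of calcium-sensitive enzymes, carriers and related proteins, 9 fell and 1 rose (median -0.34), where 24.2% of all tested genes fell and 25.8% rose. Ogdh, the calcium-activated subunit of oxoglutarate dehydrogenase, fell by 0.80 and Idh3a by 0.64 on the log2 scale, while the calcium-activated pyruvate dehydrogenase phosphatase gene Pdp1 rose by 0.99. Of 13 VDAC partners and permeability transition genes, 5 fell and 3 rose (median -0.08). Slc25a5 fell by 0.94, Bak1 by 0.83, Ppif by 0.50, Slc25a4 by 0.41 and the hexokinase gene Hk1 by 0.36. Gsn, which encodes the actin-severing protein gelsolin, rose by 2.66, the pro-apoptotic gene Bax by 0.46 and Bcl2l1 by 0.41, the last losing its call with the exon length offset (0.23, adjusted p = 0.068). Of 14 outer membrane import genes, 9 fell and 0 rose (median -0.47), with 1 rise without Nifedipine 1. Tomm40, the import pore, fell by 1.04, Samm50, which inserts beta-barrels, by 0.81 and Mtch2 by 0.62.

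**Figure D5:**
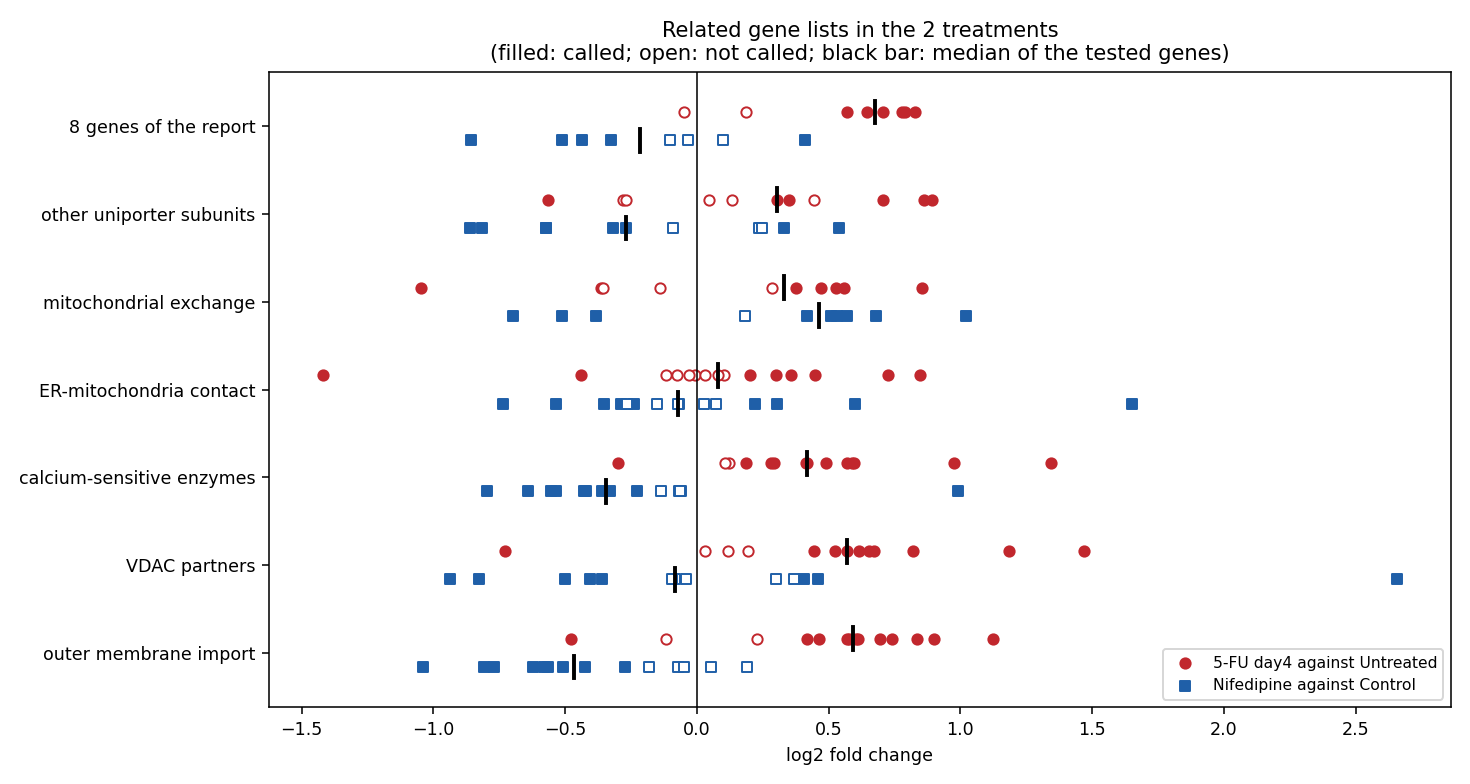
Log2 fold changes of the 8 genes and of the tested genes of 6 related lists after 5-FU (circles) and with nifedipine (squares). Filled symbols were called by edgeR and black bars are medians. Medians of the outer membrane import list stand at 0.59 after 5-FU and -0.47 with nifedipine.

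The sum of 16 mitosis genes lay at 2234 to 2587 CPM with nifedipine and 3317 to 3535 CPM in Control, where 10 of the 16 fell and 1 rose. The sum of 10 HSC markers lay at 2230 to 2494 CPM with nifedipine and 1353 to 1440 CPM in Control, with all 10 detected in both. Summed endothelial and stromal markers overlapped, at 135 to 169 CPM with nifedipine and 146 to 171 CPM in Control, with Cxcl12 at 0 in both. Erythroid markers lay at 106 to 165 CPM with nifedipine and 216 to 267 CPM in Control, with Slc4a1 and Car1 at 0 in both. Megakaryocyte markers lay at 134 to 269 CPM with nifedipine and 280 to 452 CPM in Control, and lymphoid markers at 6.90 to 11.2 CPM with nifedipine and 12.0 to 14.1 CPM in Control. Granulocyte and monocyte markers lay at 210.3 to 233 CPM with nifedipine and at 62.5 to 80.7 CPM in Control, with Mpo, Elane, S100a8 and S100a9 at 0 in both and Ctsg and Ly6g also at 0 in Control. The part of these markers in the changes was not tested. The calls of Mcu, Letm1, Vdac1 and Vdac2 were kept with each of the 7 libraries left out in turn, with log2 fold changes of 0.37 to 0.49, -0.94 to -0.79, -0.57 to -0.44 and -0.47 to -0.38.

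Control set against Untreated gives the cultured level beside the fresh one, and culture, experiment and the division gate cannot be told apart in it. Of the 8 genes, 7 were higher in Control and 0 lower, where 72% of 13520 tested genes were called (35.8% higher and 36.1% lower; edgeR quasi-likelihood test). In those 7 genes all control libraries lay above all untreated ones, where 36.3% of all tested genes lay above without overlap and 35.6% below. The median log2 fold change was 1.26 over the 8 genes and -0.05 over all tested genes. Sums of mitosis, HSC, granulocyte and monocyte, and lymphoid markers differed here without overlap, and sums of the other marker lists overlapped. The part of the markers in the result was not tested. The mitosis sum lay at 3317 to 3535 CPM in Control and 176 to 832 CPM in Untreated, with 16 of 16 genes called higher, and the HSC marker sum at 1353 to 1440 CPM in Control and 4639 to 4987 CPM in Untreated, with 9 of 10 called lower. The endothelial and stromal sum lay at 146 to 171 CPM in Control and 142 to 1770 CPM in Untreated, with 9 of 10 called lower and 1 higher, and Cxcl12 and Pdgfra at 0 in Control. Erythroid markers lay at 216 to 267 CPM in Control and 71.2 to 1945 CPM in Untreated, and megakaryocyte markers at 280 to 452 CPM in Control and 317 to 412 CPM in Untreated. Granulocyte and monocyte markers lay at 62.5 to 80.7 CPM in Control and 147 to 178 CPM in Untreated, and lymphoid markers at 12.0 to 14.1 CPM in Control and 23.7 to 37.9 CPM in Untreated. This comparison shares its libraries with both others, so its values are given side by side with theirs and not as independent support. Vdac1 was higher by 1.74, Smdt1 by 1.5, Vdac3 by 1.36, Vdac2 by 1.34 and Letm1 by 1.17, at edgeR adjusted p of 2.09e-06 or below. Micu2 was higher by 0.69 ± 0.09 (SE; edgeR adjusted p = 5.83e-05) and Mcu by 0.64 ± 0.15 (SE; edgeR adjusted p = 0.00407). Mcur1 was at -0.16 ± 0.09 (SE; edgeR adjusted p = 0.135). Its value was called lower at -0.32 with a filter at a mean of 10 CPM, and higher at 0.28 with the exon length offset, so no direction is given for it. Micu3 was lower by 0.86 on the log2 scale (edgeR adjusted p = 0.0012), and lost its call with the exon length offset (-0.36, adjusted p = 0.0737).

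Across the 4 groups the genes did not share an order. Between fresh and cultured groups, culture, experiment and the division gate cannot be told apart. Over all tested genes, ranges did not overlap in 47.3% between 5-FU day4 and Untreated and in 51.2% between Nifedipine and Control. That share was 71.9% between Control and Untreated, and it was not computed for other pairs. Mean CPM of Mcu ran from Nifedipine (27.05 ± 2.21) over 5-FU day4 (23.1 ± 1.96) and Control (20.3 ± 1.87) to Untreated (13.5 ± 1.91; SD, n = 4, 4, 3 and 4), and of these neighbours only Control and Untreated did not overlap. Smdt1, Vdac1, Vdac2, Vdac3 and Micu2 ran from Control over Nifedipine and 5-FU day4 to Untreated. For Vdac1 no neighbours in that order overlapped, while Smdt1 and Vdac3 overlapped between Nifedipine and Control, and Vdac2 between Nifedipine and 5-FU day4. Micu2 did not overlap between Nifedipine (88.0 ± 3.39) and 5-FU day4 (64.4 ± 6.20; SD, n = 4 each), and its other neighbours overlapped. Letm1 ran from Control (77.8 ± 5.29) over 5-FU day4 (52.1 ± 8.43) and Nifedipine (43.0 ± 5.62) to Untreated (35.8 ± 3.06; SD, n = 3, 4, 4 and 4), and only Control stood clear of its neighbour. Mcur1 ran from Untreated (75.3 ± 1.96) over 5-FU day4 (71.4 ± 3.26) and Nifedipine (69.8 ± 4.87) to Control (65.2 ± 6.85; SD, n = 4, 4, 4 and 3), and all neighbours overlapped.

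As a description over the 15 libraries, which share their groups and scaling, Pearson r of log2 CPM was 0.981 between Vdac1 and Vdac2 and 0.978 between Smdt1 and Vdac2. It was 0.815 between Mcu and Vdac3 and 0.321 between Mcu and Letm1. Mcur1 had negative values with the 7 others, from -0.692 with Vdac1 to -0.31 with Mcu. Among 9269 candidate genes, the patterns most like that of Mcu were those of Hmox2 (r = 0.937), Commd3 (0.934) and Fkbp1a (0.934). Those most like Smdt1 were Kpna1 (0.992) and Phf6 (0.989), and those most like Micu2 were Ptdss1 (0.978), Ufsp2 (0.969) and Plod2 (0.969). For Letm1 they were Grsf1 (0.967), Cacybp (0.966) and Ddx46 (0.961). For Mcur1 they were Rab38 (0.849), Fam8a1 (0.824) and Reps2 (0.824). For Vdac1 they were Spcs3 (0.992), Fam120a (0.991) and Ywhaz (0.991), for Vdac2 Tomm70a (0.994), Cfl1 (0.993) and Ppp1ca (0.993), and for Vdac3 Cnih1 (0.99), Cdc42 (0.989) and Ifi30 (0.989).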

How the data were processed

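The deposited table of each library gives, per the file headers, the total exon reads of each feature, which are whole-number counts, and its RPKM. Build mm10 is named per the submitters' processing notes. The aligner was not given in the sources used here, nor was the counting program. Exon reads per library were 9775640 to 17397392 in 5-FU day4, 6171730 to 16685285 in Untreated, 17582453 to 22372771 in Nifedipine and 20145079 to 26673045 in Control. The 48737 features of each table gave 46119 genes after copies on alternate scaffolds were added up. The 8 genes each had 1 feature. The RPKM values, as the authors computed them, gave exon lengths and the implied read total (RPKM total), of which exon reads made up 30.0 to 31.9% in 5-FU day4, 25.0 to 26.3% in Untreated, 31.8 to 38.4% in Nifedipine and 35.5 to 38.9% in Control.

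Each comparison was fitted on the counts of its own libraries over all genes with edgeR 4.0.16 in R 4.3.3 (TMM, filterByExpr, a two-sided quasi-likelihood F test on group alone, Benjamini-Hochberg adjustment). Genes were called at 0.05 or less after adjustment. The common coefficient of biological variation was 0.202 for 5-FU, 0.13 for nifedipine and 0.213 for Control against Untreated. CPM values use TMM over all 15 libraries. The fit was tested on simulated data. Alternatives were DESeq2 1.42.0 and its size factors, limma-voom (limma 3.58.1), other filters, the RPKM total as library size, an exon length offset, a replicate block, all groups in one fit, features as deposited, and each library left out.

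The members and lists were chosen with earlier results of these data known. The text names the 8 members, the 3 genes with the smallest p of each related list that were called and all called genes of a direction with 5 or fewer, and the 3 genes most like each member by Pearson r of log2 CPM (prior count 2) among genes tested in both experiments with a mean of at least 10 CPM. Genes with predicted or clone names were left out of the candidates for likeness. Micu3 is given throughout as a gatekeeper outside the set. Some genes that these rules or counts would name are not reported here. Lists were counted in both treatment comparisons.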

Additional observations from a re-analysis of the deposited data

Results flagged for a closer look

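In 3 of 51 groups of 4 libraries, 1 library stood apart from the others by Dixon's test at the 95% level, and chance gives about 1 in 20. Mcu in Untreated 1 stood at 16.4 CPM, against 12.3 to 12.8 CPM in the other untreated libraries. The ratio of Mcu to Mcur1 was likewise highest in Untreated 1, at 0.330. The ratio of Mcu to Letm1 in 5-FU 1 was 0.590, where the highest of its group was 0.872. Without Untreated 1 the log2 fold change of Mcu after 5-FU was 0.90, and without 5-FU 1 that of Letm1 was 0.44; both kept their calls.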

How the results depend on the processing

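All 6 calls of the set after 5-FU held in each of 19 alternatives, and those of Mcu, Letm1, Vdac1 and Vdac2 with nifedipine in each of 17. Members called were 6 to 7 after 5-FU, 4 to 5 with nifedipine and 7 to 8 in Control against Untreated. Values that changed sign were all of genes that had not passed. Mcur1 after 5-FU was 0.15 with the RPKM total and 0.044 with the exon length offset, and with nifedipine -0.043 with that offset. Micu2 with nifedipine was 0.014 with the RPKM total, and from -0.074 to 0.0018 with 1 library left out (highest without Control 1). Mcur1 in Control against Untreated was 0.086 with the RPKM total and 0.28 with the offset (edgeR adjusted p = 0.0162). In that comparison 1 member was lower at a mean of 10 CPM and with all groups in one fit, against 0. The cause was not tested. The RPKM total moved the median of all tested genes to 0.17 after 5-FU and 0.18 in Control against Untreated. It also moved the share of higher calls to 73.6% after 5-FU (5149 higher and 1844 lower), against 52.9% (3580 and 3185). After 5-FU the exon length offset gave 57.2% (3682 and 2758). With nifedipine that offset gave 39.5% (2575 and 3940) and the RPKM total 58.1% (3183 and 2295), against 51.6% (3298 and 3098). In Control against Untreated that share was 60.1% with the RPKM total and 63.4% with the offset, against 49.8%. Deviations of same-numbered libraries correlated at -0.15 to 0.148. Libraries of different numbers were not compared in this way, so whether the numbers pair the samples cannot be told. A replicate block left the calls of the set unchanged, at 6, 5 and 7 members, with 3395 and 2936 genes called higher and lower after 5-FU. Under it Spg7 (edgeR adjusted p = 0.063) and Mcoln1 (0.0821) after 5-FU and Mfn1 with nifedipine (0.066) were not called. Depth limits Mcu most, at 85 reads in Untreated 2.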
